A study of Mus musculus with 10 samples.

Results

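Toll-like receptors are pattern receptors that recognise microbial molecules and some molecules released by damaged tissue. Here 8 of them (Tlr1, Tlr2, Tlr3, Tlr4, Tlr6, Tlr7, Tlr9 and Tlr13), their coreceptor gene Cd14 and the signalling adaptor gene Myd88 were followed in the mouse hippocampus. The members were taken as every probe set whose single platform gene symbol was one of these 10 names, which gave 16 of the 45037 probe sets measured apart from controls. Tlr4 had 4 probe sets, Tlr7 had 3, Tlr3 had 2 and each of the other 7 genes had 1. No member was filtered out, and all 16 were tested.

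The arrays came from whole hippocampi of 10 female SJL/J mice of 8 to 10 weeks, each killed 2 days after an axonal lesion, with 1 array per mouse. The 5 AxL mice had the lesion alone, and the 5 TPlp+AxL mice had received an adoptive transfer of T cells specific for proteolipid protein, a main protein of myelin, before the same lesion. All 10 mice thus carried the lesion, so the comparison asks which transcripts differ when myelin-specific T cells are added to it, and no uninjured animals were analysed here. The labels do not state the number of transferred cells, their activation state or the site of the lesion. The arrays AxL 3, AxL 5 and TPlp+AxL 1 stood apart in markers of the choroid plexus, a tissue next to the hippocampus that makes cerebrospinal fluid: their mean log2 level over 7 genes was 10.10 to 11.03 there and 8.59 to 8.78 in the other 7 arrays.

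The receptors sit in 2 places. Tlr1, Tlr2, Tlr4 and Tlr6 act at the cell surface, where Tlr2 pairs with Tlr1 or Tlr6 to bind bacterial lipopeptides and Tlr4 binds lipopolysaccharide that Cd14 delivers. Tlr3, Tlr7, Tlr9 and Tlr13 act in endosomes and bind nucleic acids. All of them except Tlr3 signal through Myd88, which leads to NF-kappaB and to cytokine genes, while Tlr3 uses the adaptor Ticam1 and Tlr4 uses both. In the brain these genes are best known from microglia, and monocytes, macrophages and neutrophils that enter from blood express several of them too.

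Myd88, Tlr1 and Tlr4 rose in TPlp+AxL, by 1.30-fold, 1.20-fold and 1.29-fold, and no member fell. A gene is said to have risen or fallen only where its limma p, adjusted by Benjamini-Hochberg over all 45037 probe sets, was under 0.05. These were 3 of the 16 member probe sets, or 3 of the 10 genes by their brightest probe set, where 0.835% of all probe sets passed in either direction, 0.646% as higher and 0.189% as lower. By brightest probe sets, 1.26% of all 18193 genes passed. Cd14 had the largest difference, 1.44-fold, but its arrays spread widely and it did not pass. Tlr2, Tlr7, Tlr9 and Tlr13 had changes between -0.05 and 0.02 on the log2 scale by their brightest probe sets. Changes and levels are on the authors' log2 scale, a positive change means a higher mean in TPlp+AxL, and intervals are 95% intervals from the same fit.

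**Figure D1:**
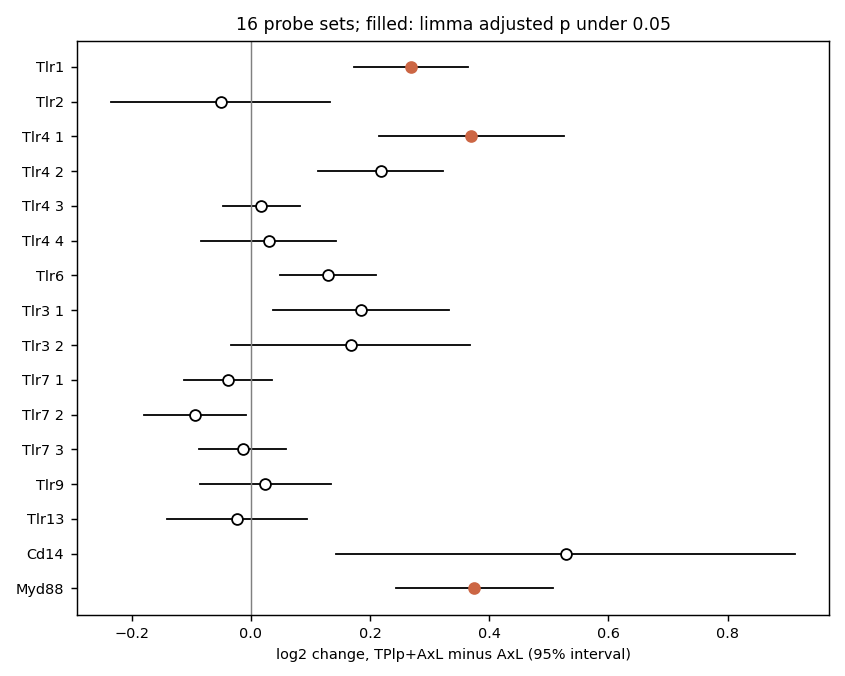
Log2 change (x axis, TPlp+AxL minus AxL) of the 16 probe sets with 95% intervals from limma. Probe sets of a gene with several are numbered from the brightest, and filled points (Tlr1, the brightest Tlr4 and Myd88) had an adjusted p under 0.05. The widest interval is that of Cd14, from 0.14 to 0.91.

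Myd88, the adaptor, had log2 signals of 8.56, 8.52, 8.53, 8.73 and 8.53 in AxL 1 to 5 and of 9.04, 8.77, 8.92, 9.04 and 8.99 in TPlp+AxL 1 to 5 (probe set 1419272_at). All 5 TPlp+AxL arrays lay above all 5 AxL arrays, although the lowest of them, TPlp+AxL 2, was close to the highest AxL array, AxL 4. The means were 8.57 ± 0.09 (SD, n = 5) and 8.95 ± 0.11 (SD, n = 5), and the log2 change was 0.38 (SE 0.06, interval 0.24 to 0.51, limma adjusted p = 0.0142). The groups did not overlap in 3 of the 16 member probe sets, those of Myd88, Tlr1 and the second Tlr4 probe set, against 3.59% of all probe sets in either direction.

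Tlr1, which binds triacylated lipopeptides as the partner of Tlr2, had 8.12, 8.01, 8.10, 8.10 and 8.16 in AxL 1 to 5 and 8.39, 8.25, 8.45, 8.38 and 8.37 in TPlp+AxL 1 to 5 (probe set 1449049_at). Every TPlp+AxL array again lay above every AxL array. The means were 8.10 ± 0.06 (SD, n = 5) and 8.37 ± 0.07 (SD, n = 5), a log2 change of 0.27 (SE 0.04, interval 0.17 to 0.36, limma adjusted p = 0.0158).

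The calls of Myd88 and Tlr1 lay near the threshold when arrays were left out. With TPlp+AxL 4 left out, Myd88 (change 0.35, limma adjusted p = 0.0508) and Tlr1 (change 0.27, limma adjusted p = 0.0569) missed the threshold, so that 0 of the 16 member probe sets passed, and 7 had an unadjusted p under 0.05. The unadjusted p of Myd88 was 0.000216 there, below the 0.000235 without AxL 5, where it passed, and 185 probe sets of the whole array passed against 376 with all arrays. That of Tlr1 was 0.000260, near the 0.000250 without TPlp+AxL 1, where it passed. With any other single array left out both genes passed, with changes of 0.35 to 0.42 for Myd88 and 0.25 to 0.30 for Tlr1. Without the 3 arrays high in choroid plexus markers the changes were 0.32 for Myd88 (adjusted p = 0.2995), 0.28 for Tlr1 (adjusted p = 0.214) and 0.37 for the brightest Tlr4 probe set (adjusted p = 0.282), and 1 probe set of the whole array still passed in limma.

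The promoters of these genes can be set beside their values. RefSeq windows on GRCm38.p6, the C57BL/6J genome and not that of SJL/J, were found for 7 of the 10 genes, in 9 windows, since Tlr1 and Tlr6 have 2 start sites each. The windows run from 250 bases before the start to 50 after it. They were searched on both strands for the NF-kappaB consensus, for the interferon-stimulated response element core GAAANNGAA, for the STAT site TTCNNNGAA (also called GAS) and for the PU.1-type site GAGGAAGT, a factor of myeloid cells. Of all 32851 promoter windows, 8.46% held the NF-kappaB consensus, 8.56% the response element core, 8.30% the STAT site and 3.20% the PU.1-type site. The 250 upstream bases of 4 windows are printed here, with matches in capitals: both genes that rose and have a window, and the surface receptors Tlr2 and Tlr6, which did not pass. All 4 lie on the minus strand and are written 5′ to 3′ in the direction of transcription: Myd88 at chr9:119340019-119340268, Tlr1 (the start farther upstream) at chr5:64933559-64933808, Tlr2 at chr3:83841609-83841858 and Tlr6 (the start farther downstream) at chr5:64959167-64959416.
Myd88: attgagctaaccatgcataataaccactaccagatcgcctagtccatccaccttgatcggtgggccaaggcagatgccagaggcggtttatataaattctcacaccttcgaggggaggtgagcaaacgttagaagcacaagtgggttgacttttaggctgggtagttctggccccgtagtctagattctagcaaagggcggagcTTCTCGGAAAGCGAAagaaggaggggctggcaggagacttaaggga
Tlr1: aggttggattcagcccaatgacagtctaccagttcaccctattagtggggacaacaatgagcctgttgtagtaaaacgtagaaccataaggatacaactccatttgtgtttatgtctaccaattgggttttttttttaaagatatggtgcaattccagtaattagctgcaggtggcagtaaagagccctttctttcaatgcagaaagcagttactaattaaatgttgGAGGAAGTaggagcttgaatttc
Tlr2: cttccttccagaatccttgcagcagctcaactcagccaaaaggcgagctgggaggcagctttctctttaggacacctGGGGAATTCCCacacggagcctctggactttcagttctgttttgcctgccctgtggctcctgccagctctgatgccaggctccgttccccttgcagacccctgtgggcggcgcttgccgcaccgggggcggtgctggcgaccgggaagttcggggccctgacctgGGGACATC
Tlr6: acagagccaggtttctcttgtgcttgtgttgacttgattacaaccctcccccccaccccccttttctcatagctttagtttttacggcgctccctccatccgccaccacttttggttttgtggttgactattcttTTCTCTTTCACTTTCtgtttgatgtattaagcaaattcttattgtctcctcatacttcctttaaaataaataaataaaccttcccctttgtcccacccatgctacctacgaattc

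In the Myd88 window a STAT site from -46 to -38 ran into a response element core from -40 to -32, with 3 bases shared; positions are counted from the start site at 1, and the base before it is -1. The printed Tlr1 window held a PU.1-type site from -23 to -16, and its other window held a STAT site from -228 to -220. The Tlr2 window held the NF-kappaB consensus at 2 places, from -173 to -163 in 2 overlapping registers and from -8 to 2, of which the last runs past the printed end. The printed Tlr6 window held 2 overlapping response element cores on the opposite strand, from -115 to -107 and from -109 to -101, and its other window held 2 STAT sites just at and after the start. Tlr3 had 1 NF-kappaB match and Tlr9 1 PU.1-type match, and the letters of these motifs did not occur in the window of Tlr13. A match describes the letters of the reference and was not tested for binding or function.

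Tlr4, the receptor for lipopolysaccharide, was dim on these arrays. Its brightest probe set had 6.94, 6.87, 7.09, 6.96 and 6.92 in AxL 1 to 5 and 7.45, 7.08, 7.29, 7.48 and 7.34 in TPlp+AxL 1 to 5 (1418162_at). The groups overlapped by a single array, since TPlp+AxL 2 lay just below AxL 3. The means were 6.96 ± 0.08 (SD, n = 5) and 7.33 ± 0.16 (SD, n = 5), with a log2 change of 0.37 (SE 0.07, interval 0.21 to 0.53, limma adjusted p = 0.0358). Its call was the least firm of the 3: with 1 array left out it passed in 2 of 10 cases, without AxL 3 (adjusted p = 0.0434) and without TPlp+AxL 2 (adjusted p = 0.00321), and the other adjusted p-values ran from 0.0636 without AxL 2 to 0.111 without AxL 5. The change itself stayed between 0.33 and 0.43 in these 10 cases.

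The second Tlr4 probe set, made from the same source transcript, had 6.94, 6.81, 6.96, 6.97 and 6.98 in AxL 1 to 5 and 7.20, 7.05, 7.07, 7.22 and 7.19 in TPlp+AxL 1 to 5 (1418163_at). Here the groups were fully apart, but the change was smaller, 0.22 (interval 0.11 to 0.32), and did not pass (limma adjusted p = 0.0681). The 2 dimmest Tlr4 probe sets, 1430695_at and 1442827_at, had changes of 0.02 (interval -0.05 to 0.08) and 0.03 (interval -0.08 to 0.14). Their mean levels of 6.58 and 6.32 put them among the dimmest 7.29% and 3.22% of all probe sets, and the brightest Tlr4 probe set stood at the percentile 23.7. The 4 probe sets of this gene therefore did not give 1 value, and the 2 that differed most between groups were the 2 that gave the most signal. These 2 also share a source transcript, and neither of the other 2 shares one with another member probe set. The part of signal level or of source in this disagreement was not tested.

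**Figure D2:**
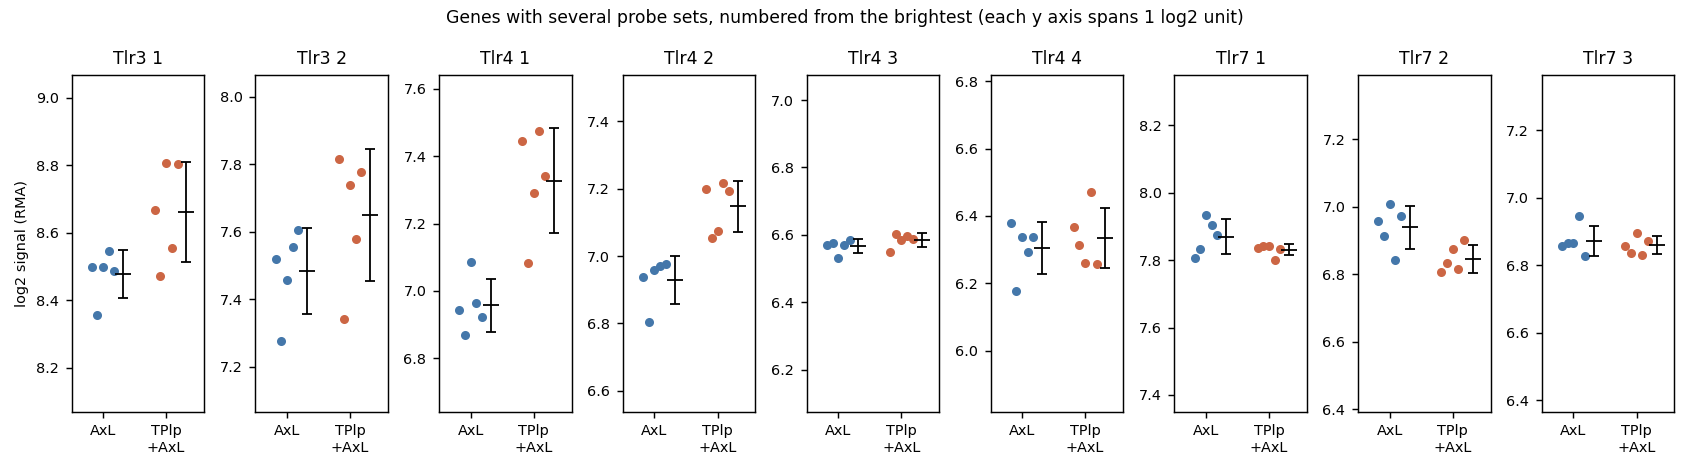
Log2 signal (y axes, each spanning 1 log2 unit) of the 9 probe sets of Tlr3, Tlr4 and Tlr7, numbered from the brightest within a gene. Points are arrays, and the bars beside them are the mean and SD of 5 arrays. The groups lie apart in the second Tlr4 probe set and overlap by 1 array in the first.

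Cd14, a membrane protein of myeloid cells that hands lipopolysaccharide to Tlr4, had 9.21, 9.02, 9.26, 9.92 and 9.45 in AxL 1 to 5 and 10.24, 9.57, 9.57, 9.98 and 10.14 in TPlp+AxL 1 to 5 (1417268_at). AxL 4 was high, above TPlp+AxL 2 and TPlp+AxL 3, while TPlp+AxL 1, 4 and 5 lay above all AxL arrays. The means were 9.37 ± 0.34 (SD, n = 5) and 9.90 ± 0.31 (SD, n = 5), and the log2 change of 0.53 (SE 0.18, interval 0.14 to 0.91) did not pass (limma adjusted p = 0.217). Cd14 did not pass under any of the 21 alternative settings run. It came nearest without AxL 4, where the change was 0.66 and the adjusted p 0.0777, and its change was 0.44 without AxL 2 or without TPlp+AxL 1.

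AxL 4 also had the highest mean level of the astrocyte marker list among the 10 arrays, 12.41 against 12.05 to 12.34 in the others, and the highest mean of the homeostatic microglia list, 9.58 against 9.13 to 9.51. The part of these markers in the high Cd14 value of AxL 4 was not tested.

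Tlr2, which recognises bacterial lipopeptides, did not pass and its groups overlapped. It had 9.12, 8.99, 9.20, 9.15 and 9.14 in AxL 1 to 5 and 9.23, 8.83, 8.88, 9.19 and 9.21 in TPlp+AxL 1 to 5 (1419132_at). TPlp+AxL 2 and 3 were the lowest of the 10 arrays and TPlp+AxL 1 and 5 the highest, so the spread was wider with T cells (SD 0.20) than without (SD 0.08). The log2 change was -0.05, and its interval of -0.23 to 0.13 allows a level between 0.850 and 1.10 times that of AxL (limma adjusted p = 0.806).

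Tlr6, the other partner of Tlr2, had 7.60, 7.61, 7.71, 7.67 and 7.59 in AxL 1 to 5 and 7.74, 7.70, 7.78, 7.82 and 7.78 in TPlp+AxL 1 to 5 (1421352_at). TPlp+AxL 2 lay just below AxL 3 and the other 4 TPlp+AxL arrays above all AxL arrays. The change of 0.13 (interval 0.05 to 0.21) did not pass (limma adjusted p = 0.160), nor did it under any alternative. Among the 4 surface receptors Tlr1 and Tlr4 rose, where 0.978% of all genes rose by their brightest probe set. The call of Tlr4 held in 2 of 10 fits with 1 array left out. Whether Tlr1 and Tlr2, or the surface and the endosomal receptors, differ in their change was not tested.

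**Figure D3:**
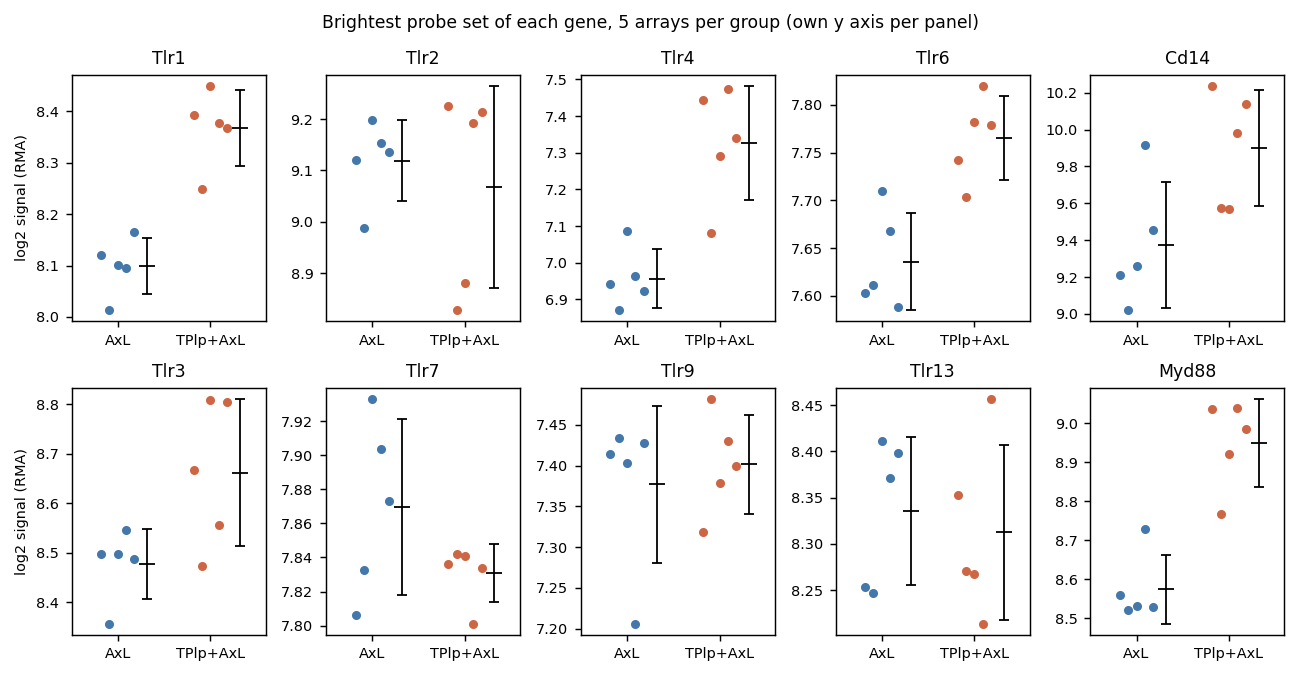
Log2 signal (y axis, a scale of its own in each panel) of the brightest probe set of each of the 10 genes. Points are the arrays of AxL and TPlp+AxL in order of their number, and the bars beside them are the mean and SD of 5 arrays. Myd88 and Tlr1 are fully apart, Tlr4 and Tlr6 overlap by 1 array, and Cd14 has 1 high AxL array.

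None of the 4 endosomal receptors passed in limma, where 1.26% of all genes passed by their brightest probe set. Tlr3, the receptor for double-stranded RNA, came nearest. It had 8.50, 8.36, 8.50, 8.55 and 8.49 in AxL 1 to 5 and 8.67, 8.47, 8.81, 8.56 and 8.80 in TPlp+AxL 1 to 5 (1422782_s_at). TPlp+AxL 2 lay inside the AxL range and the other 4 above it. The difference of 0.18 (interval 0.04 to 0.33) had a limma adjusted p of 0.258, and the second probe set of the same source transcript had 0.17 (interval -0.03 to 0.37, adjusted p = 0.423).

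Tlr7, which binds single-stranded RNA, was negative in all 3 probe sets, with changes of -0.04, -0.09 and -0.01 from the brightest to the dimmest. The brightest ran from 7.81 to 7.93 in AxL and from 7.80 to 7.84 in TPlp+AxL, so that the groups overlapped. The middle one had the smallest adjusted p of these, 0.314, with an interval of -0.18 to -0.01. Its ending, _x_at, marks a probe set that can also bind similar transcripts.

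Tlr9, the receptor for CpG DNA, ran from 7.21 to 7.43 in AxL and from 7.32 to 7.48 in TPlp+AxL, with a change of 0.02 (interval -0.09 to 0.14, limma adjusted p = 0.849). Its sign turned negative when each array's median was subtracted (-0.0034) and after quantile (-0.0081) or cyclic loess (-0.0055) normalization. Tlr13, the mouse receptor for bacterial ribosomal RNA, ran from 8.25 to 8.41 and from 8.21 to 8.46, with a change of -0.02 (interval -0.14 to 0.09, limma adjusted p = 0.865). For Tlr7 by its brightest probe set, Tlr9 and Tlr13 the intervals allow a fall to no less than 0.907 and a rise to no more than 1.10 times the AxL level.

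Over the 10 genes the median log2 change was 0.16, with 7 positive and 3 negative, and over the 16 probe sets it was 0.08, with 11 positive and 5 negative. Over all genes by their brightest probe set the median was -0.03 and 37.3% were positive, and over all probe sets it was -0.0034 and 48.3% were positive. Of the 10 genes, 6 (Myd88, Tlr1, Tlr4, Tlr6, Cd14 and Tlr3) had an unadjusted limma p under 0.05, all with a positive change. In the fit with 1 probe set per gene, 6 of the 10 and 3108 of all 18193 genes had a p under 0.05. Of the 16 probe sets 8 had an unadjusted p under 0.05, 7 of them positive, as had 14.3% of all probe sets in either direction. Signal level moved with the changes in the array as a whole. All probe sets with a mean level of 7 to 8 had a median of 0.03, those of 8 to 9 had -0.0046 and those of 9 to 10 had -0.06, and these levels hold the brightest probe sets of all 10 genes. At the level of Tlr1 and Myd88, 8 to 9, the middle 90% of all probe sets lay between -0.16 and 0.17.

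The same arrays were low in many members. TPlp+AxL 2 was the lowest array of its group in 6 of the 10 genes, and AxL 2 the lowest of its group in 7. The same count was not made over all genes, so the members cannot be said to differ from other genes in this. TPlp+AxL 2 was the lowest of its group in Myd88, Tlr1 and Tlr4, so leaving it out had to raise their changes. Without it the changes were 0.42, 0.30 and 0.43, with limma adjusted p of 0.00257, 0.00470 and 0.00321.

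**Figure D4:**
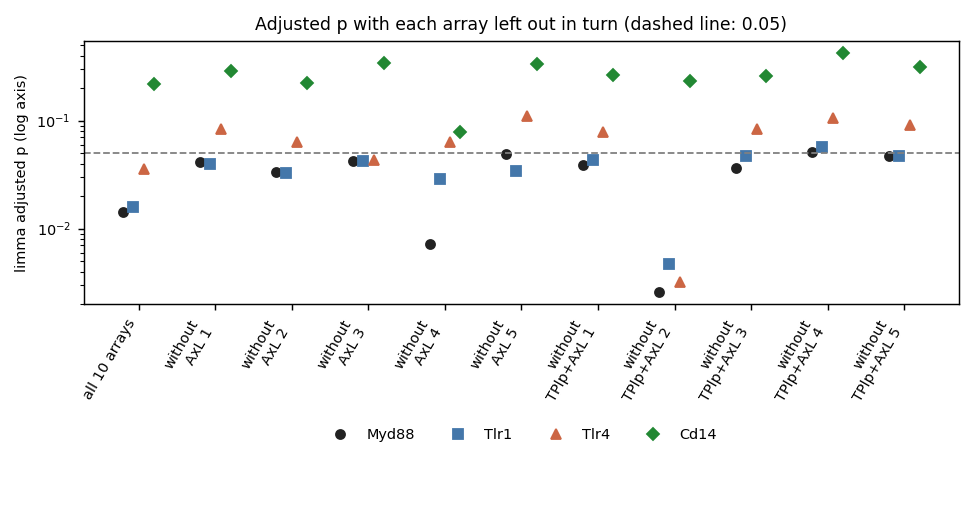
Limma adjusted p (log axis) of Myd88, Tlr1, Tlr4 and Cd14 by their brightest probe sets with all 10 arrays and with each array left out in turn; the dashed line is 0.05. Myd88 and Tlr1 lie above the line without TPlp+AxL 4, Tlr4 lies below it in 2 of the 10 cases, and Cd14 lies above it throughout.

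Markers of cells that can carry these receptors were read in the same arrays. In whole tissue a change in the number of such cells and a change in RNA per cell cannot be told apart. By their brightest probe sets 0.978% of all genes rose and 0.28% fell, so no call in a list of 7 to 10 genes is the usual case. Of 9 measured monocyte and macrophage markers 4 rose, and the mean log2 level of the list ran from 8.71 to 9.05 in AxL and from 9.41 to 9.67 in TPlp+AxL. The risers were Chil3 (log2 change 2.18), Plac8 (1.92), Lyz2 (0.90) and Ms4a6c (0.70). Ccr2, Ms4a7, Mrc1, Cd163 and Fn1 did not pass, with changes between -0.0017 and 0.13. Of 8 neutrophil markers 3 rose (list means of 7.65 to 7.93 against 8.10 to 8.20), S100a9 (1.18), S100a8 (1.14) and Mmp8 (0.24). Ngp, Camp, Mmp9, Cxcr2 and Elane did not pass, with changes between -0.05 and 0.14. Of 8 T cell markers 2 rose (7.57 to 7.68 against 7.83 to 8.07), Cd3g (0.87) and Cd3d (0.63), and the others had changes between 0.02 and 0.40. None of the 9 homeostatic microglia markers passed in limma, 7 were negative, and the list mean ran from 9.28 to 9.58 in AxL and from 9.13 to 9.45 in TPlp+AxL. Over all genes by their brightest probe set, 37.3% had a positive change. All probe sets with a mean level of 9 to 10, where these list means lay, had a median change of -0.06. None of 7 B cell or 7 dendritic cell markers passed, and their list means overlapped. RMA values have no true 0, so absence of a marker cannot be read from them. The part of these cells in the changes of Myd88, Tlr1 and Tlr4 was not tested. Markers of hippocampal neurons (10 of 10 measured) and of astrocytes (8 of 8) had list means of 10.81 to 10.99 and 12.05 to 12.41. None of them passed in limma, and 7 of the 10 neuron and 7 of the 8 astrocyte markers were negative. The median changes of the neuron and astrocyte lists were -0.10 and -0.14. All probe sets with a mean level of 10 to 12 had a median of -0.10, and those over 12 had -0.14. All 7 choroid plexus markers were negative, and none passed. The arrays high in them, AxL 3, AxL 5 and TPlp+AxL 1, were unevenly split between the groups. The part of that split in these signs was not tested.

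The rest of the pathway was read from 7 lists of 79 measured genes, each by its brightest probe set. Of these genes 14 rose and 0 fell in limma, where 0.978% of all genes by their brightest probe set rose and 0.28% fell. Without the 3 arrays high in choroid plexus markers 0 of the 79 passed in limma, and only 1 probe set of the whole array did. An unadjusted p under 0.05 was found for 33 of the 79 there and for 32 with all arrays. Over all 45037 probe sets these counts were 4743 and 6453. Most of the 14 lay at the ends of the pathway, among ligands and targets. Of 18 target genes of NF-kappaB and interferon regulatory factors 9 rose, led by the cytokine Il6 (log2 change 1.70, adjusted p = 0.00221), the monocyte chemokine Ccl2 (1.64, adjusted p = 0.000779), the chemokine Cxcl10 (1.56, adjusted p = 0.0109) and Acod1 (1.47, adjusted p = 0.00221), which makes itaconate in activated macrophages. The median of the list was 0.49. These genes have other inducers too, among them interferons and interleukin-1.

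Of 7 genes for proteins that can act as endogenous ligands 3 rose in limma. They were S100a9 (1.18, adjusted p = 0.0161), S100a8 (1.14, adjusted p = 0.0185) and Saa3 (1.09, adjusted p = 0.0227), the gene of an acute-phase protein. S100a8 and S100a9 stand in the neutrophil marker list as well. None of the 3 passed without TPlp+AxL 4, at adjusted p of 0.0599 for S100a9, 0.0653 for S100a8 and 0.0806 for Saa3. S100a8 also missed without AxL 1 (adjusted p = 0.0525). Saa3 also missed without AxL 5 (0.0698), TPlp+AxL 1 (0.0586), TPlp+AxL 3 (0.0503) or TPlp+AxL 5 (0.0705), all adjusted p.

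The middle of the pathway held 3 risers beside the members. Of 17 adaptors, kinases and ubiquitin ligases 1 rose, Pik3ap1 (0.53, adjusted p = 0.0106), an adaptor that links the receptors to phosphoinositide 3-kinase, and its second probe set had -0.0052. Of 12 negative regulators 1 rose, Trim30a (0.52, adjusted p = 0.0122), an interferon-inducible protein that restrains NF-kappaB. Of 9 transcription factors 1 rose, Irf8 (0.65, adjusted p = 0.0204), a factor of myeloid cells. With 1 array left out Irf8 passed without AxL 2, AxL 4 or TPlp+AxL 2, and in the other 7 cases its adjusted p ran from 0.0506 without AxL 3 to 0.0733 without TPlp+AxL 4. A second probe set of Irf8 passed with all arrays (0.37, adjusted p = 0.00956).

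None of 14 accessory and trafficking proteins and none of 3 other receptors passed in limma. The nearest were Cd36 (0.47, adjusted p = 0.0576), a scavenger receptor that works with Tlr2 and Tlr6, Cnpy3 (-0.16, adjusted p = 0.137), a chaperone of the receptors, Tlr8 (0.08, adjusted p = 0.437) and Tlr12 (-0.06, adjusted p = 0.561, with 0.06 in its second probe set). The other 2 probe sets of Cd36 had 0.32 (adjusted p = 0.154) and 0.10 (adjusted p = 0.353). Its brightest passed without TPlp+AxL 2 (adjusted p = 0.0108), with array weights (0.0440) and with 1 probe set per gene (0.0398). After quantile or cyclic loess normalization 1 of the 14 accessory genes passed in limma as higher. That gene was not Cd36, which had an adjusted p of 0.0779 and 0.0783 there. The medians of these 5 lists lay between -0.02 and 0.04, and those of the accessory proteins, negative regulators, and adaptors and kinases changed sign with the normalization.

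**Figure D5:**
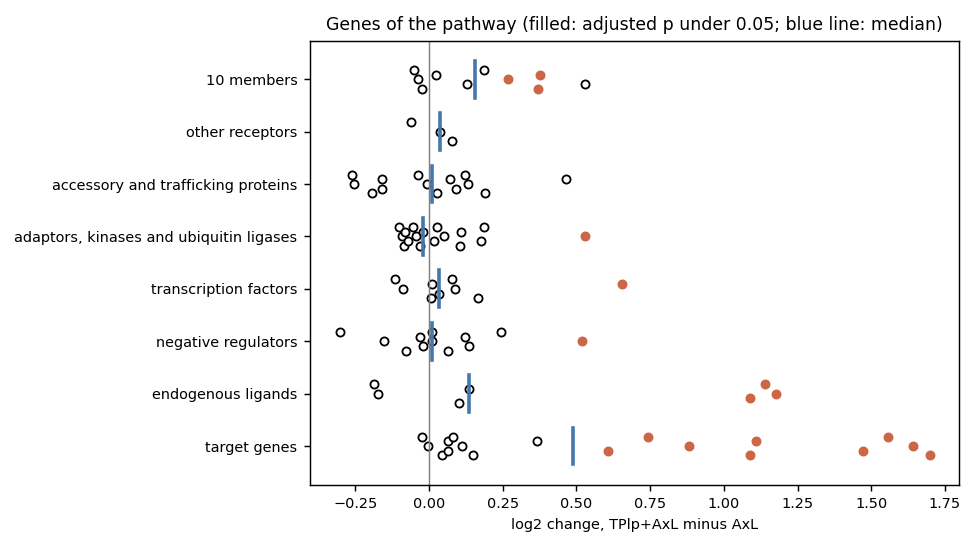
Log2 change (x axis, TPlp+AxL minus AxL) of the 10 members and of the 79 other genes of the pathway in 7 lists, each gene by its brightest probe set. Filled points had a limma adjusted p under 0.05, and blue lines are medians. Saa3 appears in both the ligand and the target list, and 9 of 18 target genes are filled.

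The genes whose profile over the 10 arrays was most like that of Myd88 were sought among 18183 other genes by the root mean square difference of log2 values, after each gene was centred on its mean. They were Bcl3, a cofactor of NF-kappaB (0.06 log2 units), Clec5a, a myeloid lectin receptor (0.06), Lcp2, a signalling adaptor of leukocytes (0.06), the nucleic acid sensor Sting1 (0.06) and Slfn1 (0.07), where the spread of Myd88 itself was 0.21. Their changes ran from 0.35 to 0.38, and all 5 passed with all arrays. Sting1 and Slfn1 also passed with any 1 array left out, but Sting1 missed with the replicate number as a block (adjusted p = 0.0505). Bcl3 missed without AxL 5 (adjusted p = 0.0566) or TPlp+AxL 5 (0.0527). Clec5a and Lcp2 passed only without AxL 4 (adjusted p = 0.0130 and 0.0253) or TPlp+AxL 2 (0.0280 and 0.00233) among these. With all arrays Clec5a missed after median subtraction (adjusted p = 0.0547), quantile (0.0835) or cyclic loess normalization (0.0930) and with the block (0.101). None of the 5 passed in limma without the 3 arrays high in choroid plexus markers (adjusted p of 0.195 to 0.375). For Cd14 they were the adhesion receptor Cd44 (0.14), the oncostatin M receptor Osmr (0.18), the oxidase subunit Ncf4 (0.19), Anxa3 (0.20) and the Fc receptor Fcgr3 (0.20), where the spread of Cd14 was 0.39. Of these, Ncf4 passed with all arrays (0.51, adjusted p = 0.0273) and, with 1 left out, only without AxL 2 (0.0415), AxL 4 (0.00184) or TPlp+AxL 2 (0.0378); it missed with the block (0.0553) and without the 3 choroid-high arrays (0.369). Fcgr3 (0.53, adjusted p = 0.0516) lay close to the threshold and passed with all arrays under 7 alternatives, with adjusted p from 0.00220 after quantile normalization to 0.0460 without the dimmest 25% of probe sets. It also passed without AxL 2, AxL 4 or TPlp+AxL 2. Cd44 passed after quantile (adjusted p = 0.0389) or cyclic loess normalization (0.0410), and Osmr after quantile normalization (0.0454). Since the measure includes the difference between the groups, it selects genes with a change of similar size.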

How the data were processed

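Expression in 10 whole hippocampi was measured on arrays, 1 per mouse. The deposited log2 values were computed by the authors with RMA (per the submitters' processing notes), in which background correction and normalization between arrays precede 1 value per probe set. The software version of RMA is not stated there. The table held 45101 probe sets and 0 missing values, and no 2 arrays were identical. The 64 control probe sets were left out and no other filter was used.

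Symbols came from the platform annotation, updated through Entrez identifiers with a RefSeq gene table (34741 of 34945 probe sets with 1 symbol matched, 932 had several symbols and 9160 none). The brightest probe set, by its mean over the 10 arrays, stood for a gene. Groups were compared with limma 3.58.1 (lmFit and eBayes, two-sided) in R 4.3.3, and p-values were adjusted by Benjamini-Hochberg over 45037 probe sets. On simulated data of this comparison and size, with independent noise, the test recovered 57.2% of log2 changes of 0.3 and 86.7% of changes of 0.5. The p-values test the difference of group means against the spread between these mice, which eBayes moderates with that of all probe sets. The number of arrays limits the precision.

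The members and lists were chosen with earlier results of these data known, so counts are read beside the share of all probe sets and no list was tested. The members shown array by array are those past the threshold and the brightest probe set of each other gene. From each pathway list the up to 4 largest changes past the threshold are named, or the 2 smallest p where none passed, and for the 2 genes with the largest change the 5 genes nearest in profile. Other probe sets of Tlr4, Irf8, Pik3ap1, Cd36 and Tlr12 and further Tlr3 and Tlr7 probe sets are given beside them. Alternatives were other variance, filtering, normalization and weighting, a replicate block, each array left out, and, chosen after seeing the data, 3 arrays left out together.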

Additional observations from a re-analysis of the deposited data

Results flagged for a closer look

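In groups of 5, an array was marked where its gap to the nearest other array exceeded 0.71 of the group's range, which chance gives in about 1 in 20 groups; 7 arrays were marked in 80 groups. Among the members, AxL 4 stood above the other AxL arrays in Myd88 (gap 0.808 of the range, 8.73 against 8.56 or less) and below them in Tlr9 (0.865, 7.21 against 7.40 or more). AxL 2 stood below in the second Tlr4 probe set (0.765, 6.81 against 6.94 or more), and TPlp+AxL 4 below in the brightest Tlr7 probe set (0.799, 7.80 against 7.83 or more). Among the other genes named, TPlp+AxL 2 stood below its group in Irf8 (0.864), Lcp2 (0.808) and Sting1 (0.801).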

How the results depend on the processing

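Of the 322 values that the 16 probe sets took under the alternatives, 292 kept their direction and their side of the threshold, 16 lost the call, 3 gained one and 11 changed sign. The cause was not tested. The losses were 12 for the brightest Tlr4 probe set and 2 each for Myd88 and Tlr1. Tlr4 missed after quantile (0.34, adjusted p = 0.0664) or cyclic loess normalization (0.34, adjusted p = 0.0695), in 8 of 10 cases with 1 array left out and with the replicate block (0.37, adjusted p = 0.0553), and the filter on the dimmest 25% removed all its probe sets. The second Tlr4 probe set passed with a trended and robust variance (adjusted p = 0.0330) and with array weights (0.0497), and at a threshold of 0.10. Values that changed sign were those of Tlr9 (-0.0034 with medians subtracted, -0.0081 after quantile and -0.0055 after cyclic loess normalization), the third Tlr4 probe set (-0.010 with medians subtracted) and Tlr13 (0.012 without the 3 arrays high in choroid plexus markers). With 1 array left out the ranges that crossed 0 were -0.018 to 0.045 for Tlr9, -0.0595 to 0.00112 for Tlr13, -0.090 to 0.0096 for Tlr2, -0.0047 to 0.049 for the dimmest Tlr4 probe set and -0.025 to 0.0043 for the dimmest Tlr7 probe set.

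The number of member probe sets past the threshold was 3, between 0 and 3 with 1 array left out, and 0 in limma without the 3 choroid-high arrays, where 5 had an unadjusted p under 0.05. That of all probe sets was 376, or 753 with array weights, 757 at 0.10, 241 with the replicate block, 185 to 460 with 1 array left out and 1 without the 3 arrays (4743 with an unadjusted p under 0.05). Its split of 291 higher and 85 lower became 269 and 210 with medians subtracted. Of the pathway genes 14 passed, 10 to 17 with 1 array left out and 0 in limma without the 3 arrays (33 with an unadjusted p under 0.05). By list, the ligands fell from 3 to 0 with the replicate block or without TPlp+AxL 4 and to 1 without the probe sets with shared-sequence endings. The deviations of same-numbered arrays correlated at 0.36 for number 2 and 0.27 for number 3, but at -0.08 to -0.22 for the other 3 numbers, so the numbers were not taken to pair the mice; with the block Myd88 (adjusted p = 0.0211) and Tlr1 (0.0377) still passed. Of the Tlr4 probe sets, 3 lay in the dimmest 20% of the array.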
